A study of Mus musculus with 28 samples.

Results

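Fat cells form and keep their identity through a small circuit of transcription factors, and 10 of its genes were described here in 28 RNA-seq libraries of mouse adipose tissue, of which 13 were from Fgf13 KO mice and 15 from control (WT) mice. The 10 genes were taken by name: the nuclear receptors Pparg, Rxra, Nr1h3 and Ppara, the basic leucine zipper factors Cebpa, Cebpb and Cebpd, the zinc finger factor Klf15, and the early B cell factors Ebf1 and Ebf2. All 10 were found among the 55891 gene identifiers of the tables. Fgf13 encodes a fibroblast growth factor homologue that stays inside the cell, and the study asked what its loss changes in fat.

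The libraries fall into 5 sets, each with its own table. An inducible adipose knockout was sampled in epididymal fat (ieWAT, 3 Fgf13 KO and 3 control libraries) and subcutaneous fat (isWAT, 2 Fgf13 KO and 3 control). A constitutive adipose knockout was sampled in subcutaneous fat (sWAT, 3 Fgf13 KO and 3 control) and brown fat (BAT, 2 Fgf13 KO and 3 control), and both arms of these 4 sets were obese mice given a high fat diet for 20 weeks. For the remaining epididymal set (eWAT, 3 labelled Fgf13 KO and 3 control) the labels give the genotype but neither the kind of knockout nor a diet. The sources used here name no Cre driver, strain, sex or age and do not tell whether each library is a separate animal, so p-values measure the spread between these libraries only.

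As background, adipogenesis runs as a relay. CEBPB and CEBPD are switched on within hours of hormonal induction, the early B cell factors prepare chromatin in committed precursors, and together they turn on PPARG and CEBPA, which then activate each other and the genes of the mature fat cell. PPARG binds DNA as a pair with RXRA. NR1H3 (LXR alpha) and PPARA, which also pair with RXRA, control sterol and fatty acid synthesis and fatty acid oxidation, KLF15 acts downstream of glucocorticoids, and EBF2 marks brown and beige precursors.

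The promoters of the members on which the results turn are shown first: the 250 bases before annotated starts of Pparg, Cebpa, Nr1h3 and Rxra, the 4 genes that passed the test in eWAT, and of Klf15, the gene with the largest fold difference among the 10 there. The sequences are from RefSeq (GRCm38.p6), which held starts for 8 of the 10 genes, 13 starts in all, and they run 5′ to 3′ on the gene's strand. Pparg has several starts, and the downstream one gives the isoform PPARG2, known for its fat-selective expression. Start 1 here has its window at chr6:115360894-115361143 (+) and start 3 at chr6:115421816-115422065 (+). The window of Cebpa is chr7:35119043-35119292 (+), that of Nr1h3 start 1 chr2:91195117-91195366 (-), that of Rxra start 1 chr2:27676951-27677200 (+), and that of Klf15 chr6:90462326-90462575 (+). Capitals mark matches on either strand to short motifs that do not contain one another. C/EBP proteins are known to bind sites like TTGCNNAA. The hexamer of the nuclear receptors was searched as AGGTCA and the site of the early B cell factors as CCCNNGGG. The E-box was searched as CACGTG and the GC box, bound by SP and KLF proteins, as GGGCGG. The TATA box was searched as TATAAA.
Pparg start 1: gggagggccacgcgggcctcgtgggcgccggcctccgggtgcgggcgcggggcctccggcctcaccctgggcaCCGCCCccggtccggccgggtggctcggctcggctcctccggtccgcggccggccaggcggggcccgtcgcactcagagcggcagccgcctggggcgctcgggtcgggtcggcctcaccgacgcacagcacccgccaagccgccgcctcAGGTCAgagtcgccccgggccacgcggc
Pparg start 3: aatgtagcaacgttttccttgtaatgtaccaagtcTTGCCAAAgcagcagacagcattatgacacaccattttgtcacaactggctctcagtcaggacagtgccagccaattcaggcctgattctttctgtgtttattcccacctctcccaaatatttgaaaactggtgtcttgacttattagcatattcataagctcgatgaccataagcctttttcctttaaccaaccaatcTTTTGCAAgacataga
Cebpa: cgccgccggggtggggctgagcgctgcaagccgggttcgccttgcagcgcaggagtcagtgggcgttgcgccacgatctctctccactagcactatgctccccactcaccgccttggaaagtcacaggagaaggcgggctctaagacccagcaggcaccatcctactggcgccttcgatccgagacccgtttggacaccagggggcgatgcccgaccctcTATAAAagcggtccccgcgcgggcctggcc
Nr1h3 start 1: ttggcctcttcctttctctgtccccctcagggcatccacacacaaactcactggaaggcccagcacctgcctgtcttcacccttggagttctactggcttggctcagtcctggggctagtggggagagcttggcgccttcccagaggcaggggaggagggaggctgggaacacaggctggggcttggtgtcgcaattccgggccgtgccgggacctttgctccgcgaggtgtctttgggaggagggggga
Rxra start 1: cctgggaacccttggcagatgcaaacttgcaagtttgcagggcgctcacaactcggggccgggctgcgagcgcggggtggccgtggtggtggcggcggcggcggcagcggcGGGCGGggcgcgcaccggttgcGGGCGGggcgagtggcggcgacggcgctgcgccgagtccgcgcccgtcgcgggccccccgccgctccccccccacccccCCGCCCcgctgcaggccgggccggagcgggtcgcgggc
Klf15: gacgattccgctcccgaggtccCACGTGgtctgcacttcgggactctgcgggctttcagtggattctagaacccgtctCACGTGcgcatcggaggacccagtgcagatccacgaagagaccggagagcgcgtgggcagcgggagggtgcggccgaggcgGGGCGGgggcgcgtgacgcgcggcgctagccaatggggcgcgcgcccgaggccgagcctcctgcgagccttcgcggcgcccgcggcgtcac

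The windows differ in make-up. Pparg start 1 lies in 82.4% G and C and holds 1 nuclear receptor hexamer and 1 GC box, whereas start 3 lies in 40.8% G and C and holds 2 C/EBP matches. The Cebpa window holds 1 TATA box, that of Rxra start 1 holds 3 GC boxes, that of Klf15 2 E-boxes and 1 GC box, and that of Nr1h3 start 1 none of the motifs. Of the starts not printed, Rxra start 2 holds 2 nuclear receptor hexamers and 0 GC boxes. Pparg start 2 holds 1 hexamer, 2 GC boxes and 1 TATA box. Among all 32851 RefSeq promoter windows of this length, 9.56% held the C/EBP letters, 14.0% the hexamer of the nuclear receptors, 6.02% the E-box, 32.7% the GC box, 12.4% the TATA box and 11.8% the EBF letters. These matches describe the letters only.

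Labels were checked first. Fgf13 was lower in each Fgf13 KO library than in each control library of ieWAT, isWAT, sWAT and BAT, with means at 0.611, 0.552, 0.577 and 0.117 of the control mean, although none of the 4 passed adjustment over all genes (limma adjusted p from 0.179 to 1.00). In eWAT it was not lower: it averaged 22.6 ± 4.76 FPKM in libraries labelled Fgf13 KO and 20.3 ± 7.39 FPKM in control libraries (SD, n = 3 each; limma adjusted p = 0.677), so directions in eWAT rest on the labels alone. Ucp1, the brown fat uncoupling protein, was at 4950.4 to 7238 CPM in BAT and at no more than 7.13 CPM in any white CPM set. Wt1 was present in both epididymal sets (5.16 to 12.1 CPM in ieWAT, 4.30 to 9.16 FPKM in eWAT) and at no more than 0.130 CPM elsewhere. Tbx15, a subcutaneous marker, reached at most 0.121 CPM in ieWAT and 0.0694 FPKM in eWAT. In BAT it was at 1.78 to 12.7 CPM in Fgf13 KO and 4.80 to 5.40 CPM in control libraries. This range overlapped that of isWAT (10.7 to 15.0 CPM) but not that of sWAT (14.1 to 20.6 CPM). The recovered depth was 13490948 to 48812592 reads per library in the 4 CPM tables, and it is unknown for eWAT.

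In eWAT, the core pair of the circuit and its nuclear receptor partners rose in libraries labelled Fgf13 KO. Of the 9 members that could be tested, 4 were higher and 0 lower at a Benjamini-Hochberg adjusted p under 0.05 in a limma fit over all genes, where 10.2% of the 13736 genes tested were higher and 14.9% were called in either direction. At an unadjusted p under 0.05 there were 5 members, against 33.9% of all genes. The median log2 change of the 9 was 0.39, against -0.03 over all genes. Values are FPKM (reads per kilobase of gene, scaled to the library), and log2 changes are Fgf13 KO minus control on the log2(FPKM + 1) scale with their standard error (SE).

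Pparg, the receptor that drives and maintains the fat cell programme, was at 76.1, 89.9 and 91.4 FPKM in the libraries labelled Fgf13 KO and at 52.5, 50.5 and 44.3 FPKM in the control libraries. Every library labelled Fgf13 KO lay above every control library. The means were 85.8 ± 8.43 FPKM in libraries labelled Fgf13 KO and 49.1 ± 4.26 FPKM in control libraries (SD, n = 3 each), a ratio of 1.75 (log2 change 0.79, SE 0.11, limma adjusted p = 0.0122). Rxra, its DNA-binding partner, was at 40.9, 43.6 and 39.5 FPKM in libraries labelled Fgf13 KO against 33.4, 31.9 and 29.2 FPKM in control libraries. The groups were apart again, and the ratio was 1.31 (log2 change 0.38, SE 0.08, limma adjusted p = 0.0293).

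Nr1h3, the sterol-sensing receptor LXR alpha, was at 70.0, 69.5 and 74.8 FPKM in the libraries labelled Fgf13 KO and at 52.1, 52.4 and 50.0 FPKM in the control libraries. Replicates lay close together in both groups, and the ratio was 1.39 (log2 change 0.46, SE 0.07, limma adjusted p = 0.0141). Ppara, the receptor of fatty acid oxidation, was near the limit of the table: 1.27, 0.945 and 0.931 FPKM in libraries labelled Fgf13 KO against 0.849, 0.699 and 0.322 FPKM in control libraries. It did not reach 1 FPKM in the 3 libraries the filter asked for and was not tested, although the groups did not overlap.

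Among the C/EBP genes the members went apart. Cebpa, which holds the mature state together with Pparg, was at 206, 211 and 227 FPKM in the libraries labelled Fgf13 KO and at 138, 152 and 135 FPKM in the control libraries. It rose 1.51-fold without overlap of the groups (log2 change 0.59, SE 0.09, limma adjusted p = 0.0131). Cebpb, an early inducer, was at 52.4, 46.0 and 64.8 FPKM in libraries labelled Fgf13 KO against 44.9, 50.9 and 66.5 FPKM in control libraries, with nearly equal means of 54.4 FPKM in libraries labelled Fgf13 KO and 54.1 FPKM in control libraries (log2 change 0.01, SE 0.18). Cebpd, the other early inducer, had a lower mean, 5.51 ± 1.22 FPKM in libraries labelled Fgf13 KO against 6.997 ± 1.87 FPKM in control libraries, with overlap (limma adjusted p = 0.353).

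Klf15 had the largest fold difference of the members in eWAT and missed the threshold. It was at 11.7, 9.39 and 11.6 FPKM in the libraries labelled Fgf13 KO and at 7.77, 4.70 and 2.76 FPKM in the control libraries, which spread almost as widely among themselves as they lay below the other group. The ratio was 2.14 (log2 change 1.05, SE 0.29, limma adjusted p = 0.0597). Ebf1, a precursor and adipocyte factor that is also essential to B cells, was at 14.6, 22.4 and 15.3 FPKM in libraries labelled Fgf13 KO against 14.4, 13.9 and 10.5 FPKM in control libraries, apart by a narrow margin (log2 change 0.39, SE 0.19, limma adjusted p = 0.188). Ebf2 overlapped, at 4.81 ± 0.367 FPKM in libraries labelled Fgf13 KO against 5.08 ± 0.941 FPKM in control libraries. In all, 6 of the 9 tested members had every library labelled Fgf13 KO above every control library and 0 below, where 21.6% of all genes tested were above in this way and 41.2% were apart in either direction. With 3 libraries against 3, the exact two-sided permutation test of a single gene cannot go below p = 0.1. Groups without overlap give that value by construction, so it adds nothing to the count of 6.

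**Figure D1:**
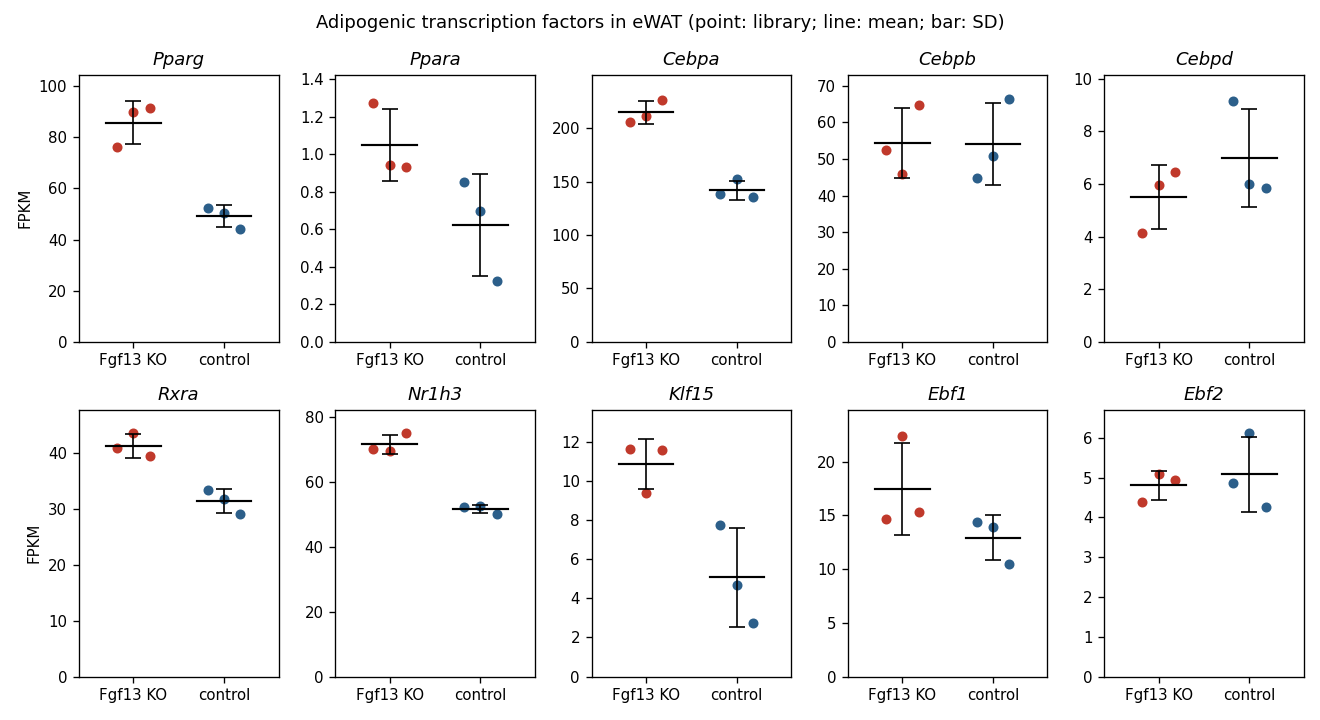
FPKM of the 10 transcription factors in each eWAT library, those labelled Fgf13 KO (red) left of control (blue); points are libraries, lines are means and bars are SD (n = 3 each). The red points of Pparg, Cebpa, Rxra and Nr1h3 all lie above the blue ones, with mean ratios of 1.75, 1.51, 1.31 and 1.39, while those of Cebpb, Cebpd and Ebf2 are interleaved.

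The calls in eWAT depended on single libraries and on the table. Without the third library labelled Fgf13 KO 0 members passed, and 12 genes in all; the log2 changes were then 0.75 for Pparg, 0.55 for Cebpa, 0.43 for Nr1h3 and 0.41 for Rxra, with limma adjusted p from 0.0695 to 0.0948. Without the second control library 2 members passed. A further table holds TPM for libraries of the same 6 names, and its values differ. Pparg was there at 18.8 to 61.8 TPM in libraries labelled Fgf13 KO and 1.97 to 37.0 TPM in control libraries, and 0 members passed. The shares of all genes called without the second control library and with the TPM values are not reported here. Rank correlations over 13809 genes between libraries ran from 0.662 to 0.907 in the TPM table and from 0.929 to 0.981 in the FPKM table. Between the TPM and the FPKM values of the same library name they ran from 0.696 to 0.858. That is below every value between different libraries of the FPKM table.

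Genes that the literature places under these factors were read next, from lists chosen with earlier results of these data known. Of 27 PPARG target genes of fat cells, 21 were higher in eWAT, 0 lower, and the median log2 change was 1.12. Of all genes tested there, 10.2% were higher. Slc2a4, the insulin-responsive glucose transporter, averaged 30.2 ± 3.78 FPKM in libraries labelled Fgf13 KO and 12.003 ± 2.83 FPKM in control libraries, a ratio of 2.52 (limma adjusted p = 0.0122). Cidec, a lipid droplet protein, rose 2.30-fold (log2 change 1.22, SE 0.16), and Dgat2, the enzyme of the last step of triglyceride synthesis, rose 2.601-fold (log2 change 1.41, SE 0.19). The same list had 0 genes called in each of ieWAT, isWAT, sWAT and BAT, with median log2 changes of 0.07, -0.02, -0.05 and -0.15. Of all genes, only 0, 1, 3 and 1 were called in these 4 sets.

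The lists of the other receptors showed fewer calls in eWAT, where 10.2% of all genes were higher and 14.9% were called in either direction. Of 18 tested PPARA targets 7 were higher and 0 lower (median 0.35), with the mitochondrial enzymes Cpt2 and Acadm 1.66-fold and 1.77-fold higher. Of 12 tested LXR targets 3 were higher and 1 lower, and the median was -0.23. The 3 were Apoc1, an apolipoprotein (202 ± 62.1 FPKM in libraries labelled Fgf13 KO, 71.0 ± 5.19 FPKM in control libraries), Scd1, a fatty acid desaturase (2.45-fold), and Srebf1, the sterol element binding factor (1.52-fold). The 1 lower gene was Arl4c, named after its values were seen, which averaged 6.92 FPKM in libraries labelled Fgf13 KO and 10.2 FPKM in control libraries.

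Other regulators of adipogenesis were mixed in eWAT. Among 17 tested factors that promote it, 5 were higher and 0 lower (median 0.18), among them Srebf1, Ebf3 (4.71 ± 0.607 FPKM in libraries labelled Fgf13 KO, 2.77 ± 0.224 FPKM in control libraries) and Stat5a (1.27-fold). Among 15 tested factors that restrain it, 2 were higher and 1 lower, near the background of 10.2% higher and 14.9% called among all genes: the Hippo pathway coactivators Wwtr1 (1.69-fold) and Yap1 (1.51-fold) rose, and Klf2 fell to 39.2 ± 0.624 FPKM in libraries labelled Fgf13 KO, against 55.6 ± 8.02 FPKM in control libraries. Of 6 tested relatives of the members, Rxrg, another RXR gene, was called, at 9.43 ± 2.02 FPKM in libraries labelled Fgf13 KO and 3.40 ± 0.765 FPKM in control libraries. Of 15 coregulators 1 was higher and 1 lower, which is also near the background: the lipin Lpin1 rose 1.63-fold and the acetyltransferase Ep300 fell to 9.84 ± 1.72 FPKM in libraries labelled Fgf13 KO, against 15.1 ± 2.42 FPKM in control libraries.

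**Figure D2:**
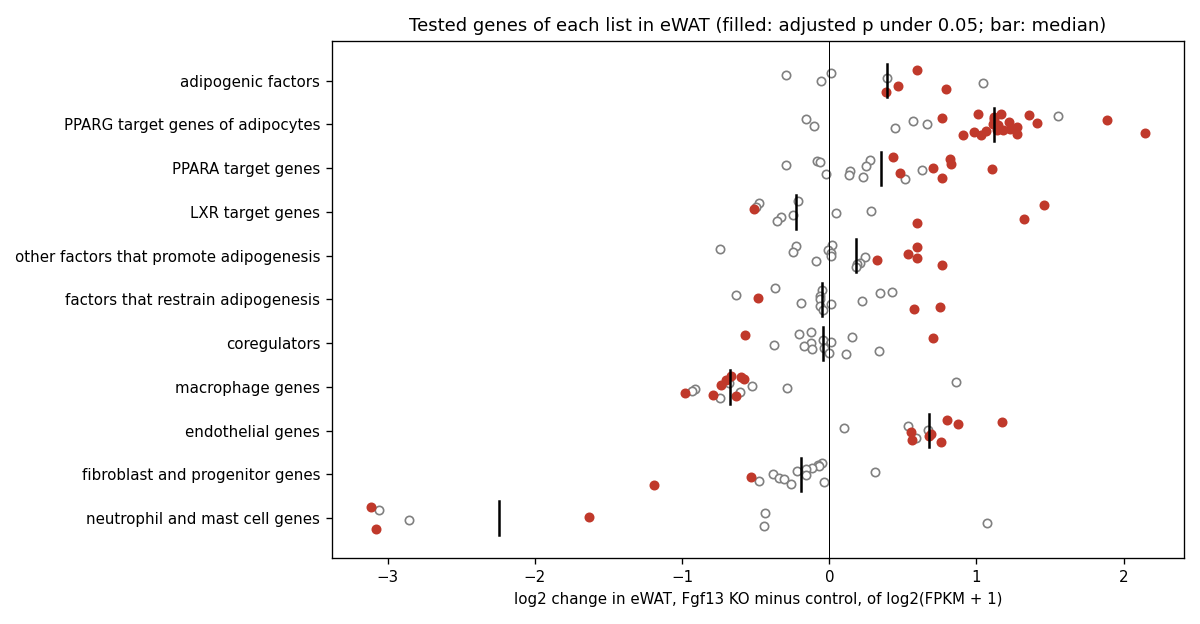
Log2 change in eWAT (Fgf13 KO minus control, log2(FPKM + 1) scale) of each tested gene, by list; filled points passed an adjusted p of 0.05 and vertical bars are list medians. The PPARG target genes centre on 1.12 and the macrophage genes on -0.67, while factors that restrain adipogenesis and coregulators lie around 0.

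Markers of other cell types differed between the same eWAT groups, where 14.9% of all genes were called in either direction. Summed FPKM of the 16 macrophage genes was 7729.9 to 10015 in libraries labelled Fgf13 KO and 12201 to 19267 in control libraries, with 8 of 16 lower and 0 higher. The 12 endothelial genes summed to 515 to 669.9 FPKM in libraries labelled Fgf13 KO and 307 to 374 FPKM in control libraries, with 8 of 12 higher. Of 8 tested neutrophil and mast cell genes 3 were lower, of 16 fibroblast genes 2 were lower, of 8 B cell genes 1 was lower, and of 9 T and NK cell genes 0 were called. None of the defining markers of macrophages, endothelium, fibroblasts, B cells and T cells was at 0 in any eWAT library: Adgre1 was at 192 to 246 FPKM in libraries labelled Fgf13 KO and 274 to 376 FPKM in control libraries. Adipoq, the fat cell hormone, averaged 1431 FPKM in libraries labelled Fgf13 KO and 571 FPKM in control libraries. The part of cell composition in the members' values was not tested, and in bulk tissue fewer cells of a type and less RNA per cell cannot be told apart.

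In the 4 other sets no member passed; whether the changes differ from those in eWAT was not tested. Limma called 0 of 10 members in ieWAT (background 0%), isWAT (background 0.00701% of genes), sWAT (0.0217%) and BAT (0.00755%), and edgeR's quasi-likelihood test on the recovered reads called 0 in each. At an unadjusted p under 0.05 there were 1, 4, 0 and 2 members in these sets, where the share of all genes was 2.62%, 13.1%, 9.66% and 19.2%. Pparg averaged 125 ± 9.92 CPM in Fgf13 KO and 132 ± 13.9 CPM in control libraries of ieWAT, and 184 ± 16.7 CPM in Fgf13 KO against 215 ± 19.4 CPM in control libraries of isWAT. In sWAT it averaged 242 ± 34.5 CPM in Fgf13 KO and 210.4 ± 4.52 CPM in control libraries, and in BAT 222 ± 19.6 CPM in Fgf13 KO and 234 ± 8.13 CPM in control libraries. The groups overlapped each time. CPM here are reads scaled to the library total, with no division by gene length, and levels are not set against the FPKM of eWAT.

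Cebpa overlapped as well. Its means were 380 ± 51.1 CPM in Fgf13 KO and 378 ± 46.7 CPM in control libraries of ieWAT, and 574 ± 45.9 CPM in Fgf13 KO and 562 ± 48.7 CPM in control libraries of sWAT. In isWAT they were 509 ± 4.67 CPM in Fgf13 KO and 545 ± 30.4 CPM in control libraries, and in BAT 357 ± 40.2 CPM in Fgf13 KO and 422 ± 59.4 CPM in control libraries. Ppara, at 3.32, 4.16 and 2.63 CPM in Fgf13 KO and 3.53, 4.60 and 3.15 CPM in control libraries of ieWAT, isWAT and sWAT, was low in each white set. Klf15 spread widely in sWAT, where it was at 69.4, 30.0 and 58.0 CPM in the Fgf13 KO libraries and at 33.2, 44.4 and 36.2 CPM in the control libraries, so that one Fgf13 KO library lay below all controls and the other two above them (log2 change 0.39, SE 0.31). The muscle genes Acta1 and Ckm also spread there, at 18.1 to 536 and 0 to 408 CPM in Fgf13 KO libraries. In control libraries they were at 13.8 to 25.7 and 0 to 0.0741 CPM. The part of muscle in the Klf15 values was not tested.

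Cebpd was the one member whose mean was lower in Fgf13 KO libraries of all 5 sets, without a limma call in any. The log2 change was above 0 for 55.8%, 43.9%, 37.2%, 23.6% and 46.4% of all genes tested in ieWAT, isWAT, sWAT, BAT and eWAT. The share of all genes that were lower in all 5 sets is not reported here. The shared direction is therefore not read as particular to Cebpd. For eWAT this holds for the FPKM values. The TPM values of the same names were 0.543, 2.12 and 0.721 in libraries labelled Fgf13 KO. In control libraries they were 2.82, 0.0581 and 0.302 TPM, so 2 of these 3 lay below every library labelled Fgf13 KO. In isWAT Cebpd was at 8.86 and 11.5 CPM in Fgf13 KO against 17.5, 15.1 and 16.9 CPM in control libraries, apart by a wide gap (ratio 0.617, log2 change -0.65, SE 0.13, limma unadjusted p = 0.00156, adjusted p = 0.253). In BAT it was at 2.71 and 2.68 CPM in Fgf13 KO against 9.93, 5.08 and 7.50 CPM in control libraries (ratio 0.359, log2 change -1.16, SE 0.26, limma adjusted p = 0.237). Every Fgf13 KO library of isWAT and BAT lay below every control library.

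In ieWAT Cebpd was at 17.5, 12.1 and 13.6 CPM in Fgf13 KO against 18.9, 17.6 and 25.03 CPM in control libraries, so that the nearest libraries of the groups almost touched (log2 change -0.48, SE 0.19, limma unadjusted p = 0.0346). In sWAT the values were 7.74, 15.3 and 17.9 CPM in Fgf13 KO against 25.2, 14.2 and 17.4 CPM in control libraries, which overlap (log2 change -0.48, SE 0.33). DESeq2 on the recovered reads called Cebpd lower in isWAT (log2 change -0.67, adjusted p = 0.0154) and in BAT (-1.27, adjusted p = 0.0218), whereas edgeR gave adjusted p = 0.346 and 0.230. Limma called Cebpd in BAT when the second control library was left out (log2 change -1.38, adjusted p = 0.00426). With 1 BAT library left out, up to 2201 genes passed limma, against 1 of 13253 with all libraries. This call is therefore not read as particular to Cebpd. The share of all genes that DESeq2 called is not reported here.

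**Figure D3:**
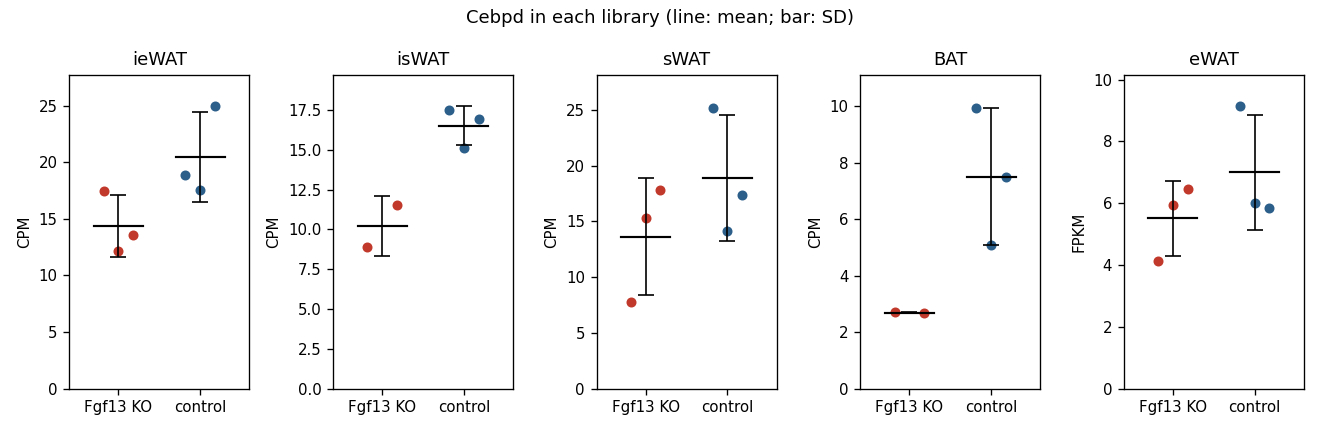
Cebpd in each library of the 5 sets, in CPM or, for eWAT, FPKM, Fgf13 KO (red) left of control (blue); lines are means and bars SD. The red and blue points are apart in ieWAT, isWAT and BAT and interleaved in sWAT and eWAT; mean ratios are 0.703, 0.617 and 0.359 in the first 3.

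CEBPD is, like KLF15, a known glucocorticoid-induced factor, and 15 other targets of the glucocorticoid receptor were read beside it. In ieWAT 0 of 15 were called, 3 were lower without overlap and 0 higher, where 5.11% of all genes were without overlap in either direction, and the median log2 change was -0.32, against 0.02 over all genes. In isWAT 7 were lower without overlap (31.6% of all genes in either direction; median -0.26, all genes -0.03) and in sWAT 4 (16.1% of all genes in either direction; median -0.30, all genes -0.05). In BAT 6 were lower without overlap, which is near the 38.1% of all genes that were lower in this way (median -0.47, all genes -0.18). In each of these 3 sets 0 were higher without overlap and 0 were called. In eWAT 2 were higher and 4 lower without overlap (41.2% of all genes in either direction; median -0.13, all genes -0.03). There 2 of 15 were called, near the 14.9% of all genes: 1 was higher, Angptl4 (1.70-fold), and 1 lower, the phosphatase Dusp1, at 54.9 ± 4.04 FPKM in libraries labelled Fgf13 KO and 85.0 ± 15.7 FPKM in control libraries.

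In isWAT 3 further members were without overlap. Cebpb was at 19.3 and 18.9 CPM in Fgf13 KO against 25.9, 23.5 and 22.5 CPM in control libraries (log2 change -0.31, SE 0.10). Rxra was at 248 and 257 CPM in Fgf13 KO against 318, 288 and 290 CPM in control libraries (log2 change -0.24, SE 0.08). Nr1h3 was at 153 and 163 CPM in Fgf13 KO against 139, 143 and 137 CPM in control libraries, the only member above its controls there (log2 change 0.18, SE 0.08). Their limma adjusted p was 0.317, 0.333 and 0.381. With Cebpd that makes 4 of 10 members, where 31.6% of all genes in isWAT were without overlap, so the count is near the background of 2 libraries against 3. In ieWAT Cebpd alone was without overlap (background 5.11%), and in sWAT 0 members were (background 16.1%).

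In BAT the whole table was shifted. The median log2 change over all genes was -0.18 as deposited and 0.00 with TMM scaling, and 44.5% of genes were without overlap, 38.1% below. The 3 members without overlap, all lower, are therefore no more than the background. Ebf1 was at 40.9 and 42.4 CPM in Fgf13 KO against 49.7, 50.9 and 58.4 CPM in control libraries (log2 change -0.34, SE 0.11, and -0.14 with TMM scaling). Nr1h3 was at 60.7 and 64.1 CPM in Fgf13 KO against 73.5, 68.7 and 83.0 CPM in control libraries (log2 change -0.26, and -0.06 with TMM scaling). Cebpd stood below the shift under both scalings (-1.16 and -0.999).

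Pparg, Cebpb and Ebf2 had negative log2 changes in BAT as deposited (-0.07, -0.06 and -0.14) and positive ones with TMM scaling (0.13, 0.14 and 0.06). Ebf2, the brown lineage factor, was at 44.6 and 43.7 CPM in Fgf13 KO and at 44.5, 57.4 and 45.3 CPM in control libraries of BAT. Macrophage genes summed to 191 to 199 CPM in Fgf13 KO and 450 to 1977 CPM in control libraries of BAT, with 16 of 16 lower without overlap. Their receptor Csf1r averaged 16.9 CPM in Fgf13 KO and 68.8 CPM in control libraries. Fibroblast genes summed to 549 to 760 CPM in Fgf13 KO and 915 to 2683 CPM in control libraries, and the muscle gene Acta1 ran from 0.431 to 1707 CPM in Fgf13 KO and from 4.51 to 337 CPM in control libraries. The part of these cells in the BAT values was not tested.

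**Figure D4:**
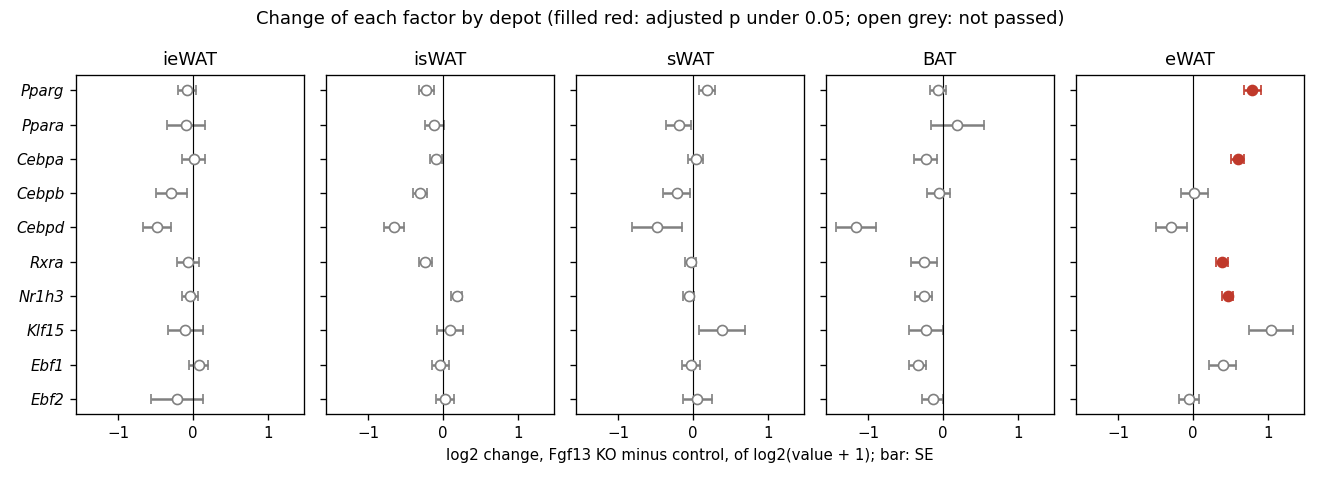
Log2 change (Fgf13 KO minus control, log2(value + 1) scale) of each factor in each set with its SE; filled red points passed an adjusted p of 0.05 in limma. The filled points lie in the eWAT panel, at 0.79, 0.59, 0.38 and 0.46 for Pparg, Cebpa, Rxra and Nr1h3, Cebpd lies left of 0 in all 5 panels, and in BAT the sign of Pparg, Cebpb and Ebf2 turns with TMM scaling.

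Several members differed in level between depots. Ppara was higher in every BAT library than in every white library of the CPM tables: control means were 44.5 ± 13.3 CPM in BAT and 3.15 to 4.60 CPM in the white sets. Ebf2 (49.1 ± 7.22 CPM against 14.7 to 19.2 CPM) and Cebpb (52.7 ± 9.66 CPM against 21.3 to 24.5 CPM) were also above all white libraries in BAT. EBF2 is known for selecting brown fat genes, PPARA for fatty acid oxidation, and CEBPB for acting with PRDM16 in the brown lineage. The tables were normalised separately, so these are levels with their spread and no test was made across them.

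Rxra, Nr1h3 and Klf15 were lower in every BAT library than in every white library. Rxra averaged 75.3 ± 14.9 CPM in BAT controls and 299 ± 16.8 CPM in isWAT, 233 ± 11.1 CPM in ieWAT and 204 ± 3.24 CPM in sWAT controls, and no neighbours in this order overlapped. Nr1h3 averaged 75.1 ± 7.25 CPM in BAT and 123 to 140 CPM in the white sets, and Klf15 20.8 ± 4.95 CPM in BAT and 35.1 to 57.7 CPM in the white sets. With TMM factors over the 4 tables Klf15 was level between BAT and ieWAT (29.8 and 29.7 CPM), and Nr1h3 stayed lowest in BAT (108 CPM against 111 CPM in sWAT).

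As deposited, control Pparg was at 234 ± 8.13 CPM in BAT, 215 ± 19.4 CPM in isWAT and 210.4 ± 4.52 CPM in sWAT, of which isWAT overlapped both neighbours, and it was lower in ieWAT at 132 ± 13.9 CPM, apart from the rest. Cebpa was at 562 ± 48.7 CPM in sWAT and 545 ± 30.4 CPM in isWAT, with overlap, and at 422 ± 59.4 CPM in BAT and 378 ± 46.7 CPM in ieWAT, which overlap each other. With TMM factors over the 4 tables Pparg kept its order, at 339 CPM in BAT and 111 to 192 CPM in the white sets, whereas Cebpa was then highest in BAT, at 606 CPM against 318 to 509 CPM. Ebf1 controls were at 100.3 ± 7.78 CPM in sWAT, 97.6 ± 7.45 CPM in isWAT, 61.7 ± 7.66 CPM in ieWAT and 53.0 ± 4.68 CPM in BAT, and with TMM factors BAT was above ieWAT (76.4 and 52.0 CPM). Cebpd was lowest in BAT (7.50 ± 2.43 CPM) and overlapped among the white sets (16.5 to 20.5 CPM).

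**Figure D5:**
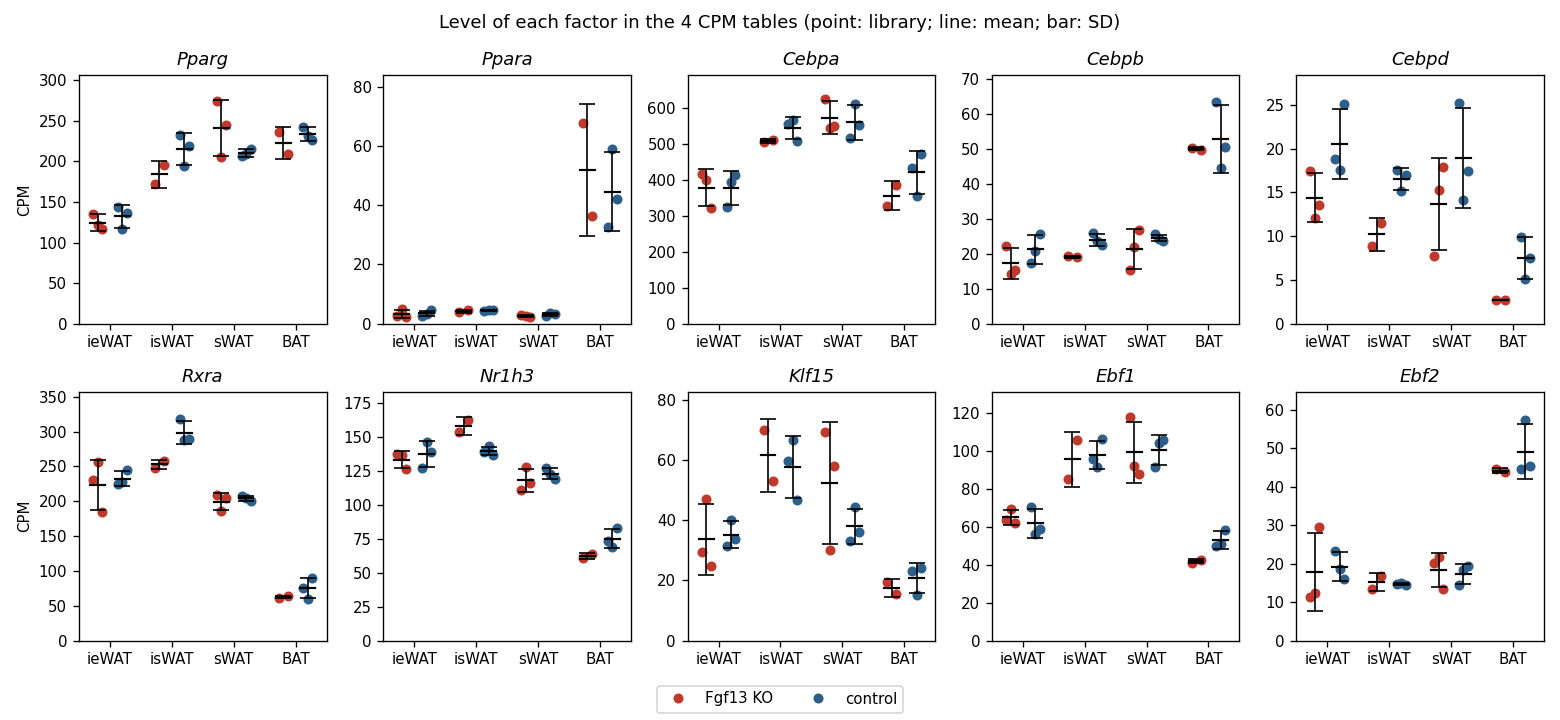
CPM of each factor in the ieWAT, isWAT, sWAT and BAT tables, with Fgf13 KO (red) left of control (blue) in each set; points are libraries, lines means and bars SD. BAT stands above the white sets for Ppara, Cebpb and Ebf2 and below them for Rxra and Nr1h3, and ieWAT has the lowest Pparg, at a control mean of 132 CPM.

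Between genes, levels were compared per kilobase of exon, with exon lengths from GENCODE M21 (GRCm38). Cebpa was the highest of the 10 in the control libraries of every set, at 143 CPM per kilobase in ieWAT, 207 in isWAT, 213 in sWAT and 160 in BAT and at 142 FPKM in eWAT. Pparg followed at 44.8 to 79.1 CPM per kilobase in the 4 CPM sets, and was second in isWAT, sWAT and BAT. Ppara was the lowest in each white set, 0.821 to 1.20 CPM per kilobase in the 3 CPM sets and 0.624 FPKM in eWAT, and in BAT it was the sixth of the 10 at 11.6. Cebpb was the third of the 10 in BAT (35.1 CPM per kilobase) and second in eWAT (54.1 FPKM, where it overlapped Nr1h3 and Pparg). In ieWAT controls it was in place 5 at 14.1 CPM per kilobase. The eWAT places are those of the FPKM values, and the TPM values differ. There, Cebpb was at 0.00729 to 0.920, Cebpa at 1.76 to 38.4 and Rxra at 3.70 to 256 TPM in control libraries.

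Genes with the most similar pattern were found for each member over the 22 libraries of the CPM tables, after each gene's mean log2(CPM + 1) within its table was subtracted, among 9150 genes with a mean of at least 5 CPM in each of the 4 tables (predicted genes and Rik clones left out). These correlations are descriptions, since libraries of a table share normalisation and depot. Rxra was closest to Zfp423 (Pearson r = 0.948, Spearman rho = 0.937), a factor of precursor commitment, Cdc42ep1 and Mcam. Klf15 was closest to Aldh7a1 (r = 0.861), Thnsl2 and Prodh, and Prodh starts the breakdown of proline. Ebf1 was closest to the frizzled receptor Fzd4 (r = 0.920), Maml2 and Meox2, and Cebpa to Trip6 (r = 0.907), Dmwd and Ccdc9b.

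Cebpd was closest to the small GTPase Rhob (r = 0.896), the casein kinase Csnk1d and Itpripl1, and Nr1h3 to Ssr2 (r = 0.910), Ergic3 and Tmem86a. Ebf2 was closest to Add3 (r = 0.875), Abca8a and Fgd4, Cebpb to Mical2 (r = 0.827), Dnaaf5 and Polrmt, and Pparg to Trim67 (r = 0.825), Adamts9 and Ptpn11. Ppara was left out, since its mean was under 5 CPM in the 3 white tables. Among the members themselves the highest values were between Cebpa and Rxra (r = 0.777) and between the early inducers Cebpb and Cebpd (r = 0.734), and the lowest was between Rxra and Ebf2 (r = -0.467).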

How the data were processed

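RNA of mouse adipose tissue was sequenced on an Illumina HiSeq2000, per the labels' protocols. DESeq2 1.38.3, Salmon, MultiQC and FastQC are named, without roles, per the submitters' processing notes; an aligner, build and annotation were not stated there (not given in the sources used here). The deposited ieWAT, isWAT, sWAT and BAT tables hold CPM: each column sums to 1000000 and 100% of values are whole multiples of 1 read (tolerance 0.01 reads). The deposited eWAT table holds FPKM, with unknown depth. A further deposited table of the same 6 eWAT library names holds TPM and was used as an alternative chosen after seeing the data; another rescaled copy was not used. Symbols matched 92.0% of identifiers (96.0% in ieWAT).

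Each set was fitted alone with limma 3.58.1 (R 4.3.3; eBayes with trend and robust, two-sided) on log2(value + 1), for genes that reached 1 in a number of libraries equal to the size of the smaller group. P-values were Benjamini-Hochberg adjusted over all genes, with a threshold of 0.05. edgeR 4.0.16 and DESeq2 1.42.0 were run on recovered reads as alternatives. The fits were tested on simulated data. Replicate numbers carry no stated pairing, and the block is described in the closing section. Genes named are the 10 members, Fgf13, the 3 genes most correlated with each member, up to 3 genes with the smallest p of each list that passed, and the defining markers; some that this rule names are not reported here. Members and lists were chosen with earlier results of these data known.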

Additional observations from a re-analysis of the deposited data

Results flagged for a closer look

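For 3 members every Fgf13 KO library lay above every control library in one set and below in another; the differences between sets were not tested. Rxra was lower in isWAT (log2 change -0.24) and higher in eWAT (0.38). Nr1h3 was higher in isWAT (0.18) and eWAT (0.46) and lower in BAT (-0.26, or -0.06 with TMM scaling). Ebf1 was lower in BAT (-0.34, or -0.14 with TMM scaling) and higher in eWAT (0.39). Groups of 2 or 3 libraries are too small to search for single libraries that stand apart.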

How the results depend on the processing

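The 4 calls in eWAT were 4 with a pseudocount of 0.1 and with eBayes without its options, 3 without the filter and 5 with TMM scaling, which added Klf15 (limma adjusted p = 0.0408). With the replicate number as a block 0 members passed. Correlations of same-numbered deviations ran from -0.317 to 0.0634 in eWAT. With 3 libraries per group they cannot settle whether the numbers mark a pairing. The block changed no member's call in the other sets. The TPM table gave 0 calls and 1 member without overlap. The shares of all genes under these settings, and under edgeR and DESeq2, are not reported here. These counts are therefore not read as particular to the members. Leaving out each library gave 0 to 5 calls in eWAT, 0 to 1 in BAT, and 0 in ieWAT, isWAT and sWAT. Over all genes, leaving out each library gave 12 to 1819 calls in eWAT and up to 2201 in BAT. Where this left 1 Fgf13 KO library (isWAT, BAT), it was assumed to vary like the controls. DESeq2 called 1 member in isWAT and 1 in BAT. With a library left out, members without overlap numbered 1 to 3 (ieWAT), 5 to 10 (isWAT), 0 to 3 (sWAT) and 3 to 7 (BAT). They stayed at 6 in eWAT. Fewer libraries overlap more rarely by construction, and the counts over all genes were high too. These were 1358 to 3295 of 14749 genes in ieWAT, 5493 to 9078 of 14258 in isWAT and 3211 to 4662 of 13816 in sWAT. In BAT they were 6431 to 9056 of 13253 genes, and in eWAT 6347 to 7343 of 13736. Of 606 single log2 changes under all alternatives, 53 changed sign, none of them a called one. TMM factors kept 55 of 60 orders between depots. Read depth is unknown for eWAT, and groups of 2 and 3 libraries limit the precision of all values.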

Other observations

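Some further lists had called genes in eWAT, where 14.9% of all genes were called in either direction. Of 6 tested brown fat genes 2 were higher, the potassium channel Kcnk3 (15.9 ± 1.04 FPKM in libraries labelled Fgf13 KO, 7.25 ± 1.86 FPKM in control libraries, n = 3 each; limma adjusted p = 0.0154) and the proton channel Otop1 (1.78-fold, limma adjusted p = 0.0176), while Ucp1 was at 0.0526 to 0.266 FPKM in libraries labelled Fgf13 KO and 0.304 to 0.614 FPKM in control libraries. Hoxc8, the single subcutaneous gene tested there, averaged 24.9 ± 3.87 FPKM in libraries labelled Fgf13 KO and 11.2 ± 1.81 FPKM in control libraries. Kit, the receptor of mast cells, averaged 4.47 ± 2.13 FPKM in libraries labelled Fgf13 KO and 15.4 ± 3.35 FPKM in control libraries (limma adjusted p = 0.0183).

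In ieWAT the 14 B cell genes summed to 3283 to 5459 CPM in Fgf13 KO and 1281 to 2330 CPM in control libraries, with 0 called, while Ebf1 was at 61.8 to 69.1 CPM in Fgf13 KO and 56.1 to 70.5 CPM in control libraries. The B cell markers Cd79a and Ms4a1 were above 0 in every library of the series. Their part in the Ebf1 values was not tested.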
